A study of Mus musculus with 38 samples.

Results

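The dermal papilla of mutant mice at postnatal day 56 (P56) was compared with the wild type papilla at P30, when the normal coat is in anagen, the growth phase of the hair cycle. The mutant carried oncogenic Nras under regulatory sequence of Tyr, a gene of pigment cells. It models a congenital hairy nevus, in which senescent melanocytes fill the dermis and many hair follicles grow out of phase. The members were all protein-coding genes with at least 1 FPKM (read fragments divided by the length of a gene's transcripts and by library size) in at least 2 of the 4 libraries compared, which gave 12327 of 16843 protein-coding genes and of 21417 genes of all kinds in the papilla table. Of these, 11967 reached 1 FPKM in a library of each group, 188 passed only through the mutant P56 libraries and 172 only through the wild type P30 libraries. Each group had 2 libraries from sorted cells of dorsal skin, and the 4 libraries compared were part of 38 in the series. The other papilla groups, also with 2 libraries each, were mutant P30 and wild type P56, the latter in telogen, the resting phase. The labels give genotype only as mutant or wild type, so further alleles of the papilla mice, such as reporters, are not known here. The sources used here do not give the gate of the papilla sort. The methods speak of biological triplicates for sorted cells, while the labels give a pair of libraries per group and no animals. The p-values measure the spread within such pairs, pooled over the 4 papilla groups, and part of that spread may be technical.

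The dermal papilla is a cluster of specialised fibroblasts at the base of the hair follicle. In anagen it sends WNT, R-spondin, FGF and other signals to the overlying epithelial progenitors and melanocytes. It shares the dermis with collagen-producing fibroblasts and with the muscular dermal sheath, and its neighbours in a growing follicle are the hair matrix and pigment cells.

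Genotype and age both differed between the 2 groups. The paper describes anagen and telogen follicles side by side in mutant skin, so hair cycle phase may have differed too. The parts of genotype, age and phase cannot be told apart. All 4 libraries compared came from male tissue by their transcripts: Xist, which silences 1 X chromosome in females, was at most 0.02 FPKM, and Ddx3y was at 31.2 to 46.8 FPKM. Mutant P30 and wild type P56 libraries had Xist at 20.4 to 23.9 FPKM and Ddx3y at 0, so in the comparisons of mutant P56 with those groups sex cannot be told apart from age or genotype. The FPKM of a library summed to 583549 to 647384. Read totals are not in the table, so the depth is unknown and no counting interval can be given. The log2 levels of the members correlated at 0.97 between the 2 wild type P30 libraries, at 0.96 between the 2 mutant P56 libraries and at 0.92 to 0.93 between the groups. The wild type P56 libraries stood apart: their smooth muscle and dermal sheath markers summed to 11516 and 12362 FPKM, against 1571 to 3551 FPKM in the other 6 papilla libraries.

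Of the 12327 members, 478 differed between mutant P56 and wild type P30 at an adjusted p under 0.05 and a change of at least 2-fold (3.88%), with 299 higher (2.43%) and 179 lower (1.45%) in the nevus papilla. The other 11849 members did not pass. The median log2 change over all members was -0.12, and the middle 50% of members lay between -0.43 and 0.21. Rescaling the libraries by their median ratio moved that median by 0.11 to -0.01 and changed the split to 335 higher and 119 lower, or from 62.6% to 73.8% higher among those called. No called member changed sign under this rescaling. The count rested in part on single libraries: leaving out wild type P30 replicate 1 gave 201 calls (159 higher, 42 lower), and leaving out replicate 2 of that group gave 150 (108 higher, 42 lower). Leaving out mutant P56 replicate 1 gave 259 higher and 61 lower, and leaving out replicate 2 gave 275 and 117. In all 4 of these fits, 92 of the 299 higher members and 11 of the 179 lower members were called. Of those that passed the abundance filter only through mutant P56, 70 were among the higher members, and 34 that passed only through wild type P30 were among the lower ones, which the filter made likely. Called members had no overlap between the libraries of the 2 groups, and that held for 53.3% of all members.

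**Figure D1:**
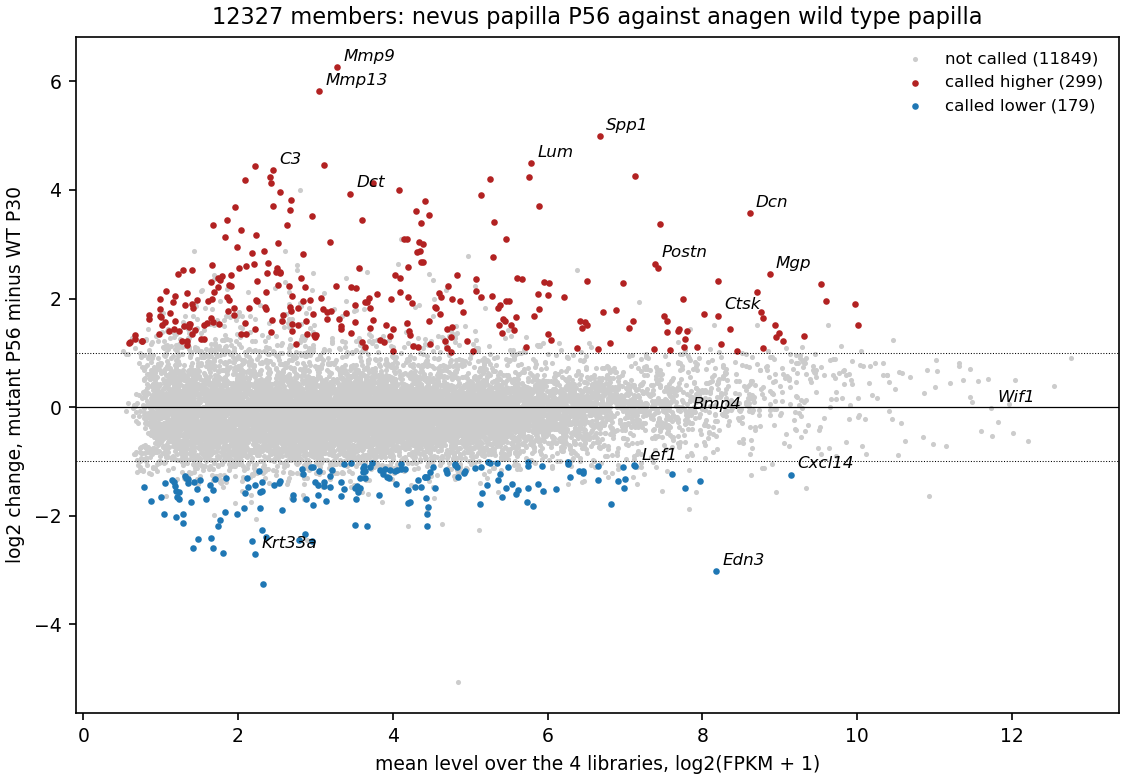
Each point is 1 of the 12327 members, with its mean level over the 4 libraries on the x axis (log2(FPKM + 1)) and its log2 change, mutant P56 minus wild type P30, on the y axis; red points were called higher (299), blue points lower (179), and dotted lines mark a 2-fold change. Mmp9, Mmp13 and Spp1 lie at the top and Edn3 lies lowest among abundant called genes, while the papilla markers Wif1 and the ligand Bmp4 lie near 0.

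Spp1 rose most among members that reached 1 FPKM in both groups. Spp1 (chr5:104435118-104441050, plus strand, GRCm38) encodes osteopontin, a secreted matrix protein that binds CD44 and integrins. Its level was 17.0 and 17.2 FPKM in wild type P30, whereas mutant P56 held 539 and 611 FPKM. The groups were far apart, by 33.6-fold in their means, and the log2 change was 4.99 ± 0.20 (SE, adjusted p = 3.9e-06). In the other papilla groups Spp1 was at 110 and 123 FPKM (mutant P30) and at 50.3 and 66.8 FPKM (wild type P56), so mutant P56 was the highest of the 4 groups and wild type P30 the lowest. Its log2 excess in mutant P56 was 2.29 over mutant P30 (adjusted p = 0.00025) and 3.28 over wild type P56 (adjusted p = 3.6e-05).

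Mmp9, Mmp13 and Col10a1 had larger or similar differences, but were under 1 FPKM in both wild type P30 libraries and so were members only through mutant P56, where they were high. Their values are a description. Mmp9 (chr2:164940780-164955850), a gelatinase, was listed at 0.23 and 0 FPKM in wild type P30 and at 85.6 and 82.1 FPKM in mutant P56 (log2 difference 6.26). Mmp13 (chr9:7272514-7283331), an interstitial collagenase, went from 0 and 0.21 FPKM to 64.6 and 58.4 FPKM (log2 difference 5.83). Both genes were near the floor in every anagen wild type library. Mutant P30 libraries held 20.3 and 23.8 FPKM of Mmp9 and 5.41 and 8.60 FPKM of Mmp13, between the groups compared. Col10a1, a network-forming collagen known from hypertrophic cartilage, followed the same order, at 0.21 and 0.25 FPKM in wild type P30, 6.03 and 3.68 FPKM in mutant P30 and 23.7 and 20.6 FPKM in mutant P56 (log2 difference 4.23). Spp1 was called higher without any 1 of the 4 libraries, and in mutant P56 against each of the other 3 papilla groups. Other members named below that were under 1 FPKM in both wild type P30 libraries are Mmp10, Plac8, Inmt, Myl1, C7, Tnni2, C3, Ccl11, Cxcl9, Tyr, Pvalb, Edn1 and Erg. Their differences from wild type P30 are likewise a description, and the list counts below include such members.

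The 250 bases upstream of the annotated start of 3 of these genes, and of Edn3, the abundant gene that fell most, are shown because these members mark the ends of the comparison. The sequences are from RefSeq on GRCm38.p6, 5′ to 3′ on the gene's strand, at chr5:104434861-104435110 (Spp1), chr9:7272264-7272513 (Mmp13), chr10:34389731-34389980 (Col10a1) and chr2:174760369-174760618 (Edn3), all on the plus strand. Capitals mark TGANTCA, the core of AP-1 sites, and TATAAA, each searched on both strands.
Spp1: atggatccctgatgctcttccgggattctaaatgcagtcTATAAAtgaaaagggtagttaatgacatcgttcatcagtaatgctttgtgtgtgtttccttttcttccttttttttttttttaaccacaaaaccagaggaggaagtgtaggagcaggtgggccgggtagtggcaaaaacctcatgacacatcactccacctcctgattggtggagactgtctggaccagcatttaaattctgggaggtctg
Mmp13: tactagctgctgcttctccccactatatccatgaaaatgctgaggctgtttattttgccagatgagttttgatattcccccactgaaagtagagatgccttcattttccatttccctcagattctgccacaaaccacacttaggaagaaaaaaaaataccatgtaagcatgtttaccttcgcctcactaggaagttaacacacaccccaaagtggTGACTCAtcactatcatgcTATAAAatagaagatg
Col10a1: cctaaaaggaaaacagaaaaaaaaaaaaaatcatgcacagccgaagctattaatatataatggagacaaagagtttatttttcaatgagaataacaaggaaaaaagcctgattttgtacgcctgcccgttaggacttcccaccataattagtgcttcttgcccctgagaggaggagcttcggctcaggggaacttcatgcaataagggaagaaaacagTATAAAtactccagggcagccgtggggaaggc
Edn3: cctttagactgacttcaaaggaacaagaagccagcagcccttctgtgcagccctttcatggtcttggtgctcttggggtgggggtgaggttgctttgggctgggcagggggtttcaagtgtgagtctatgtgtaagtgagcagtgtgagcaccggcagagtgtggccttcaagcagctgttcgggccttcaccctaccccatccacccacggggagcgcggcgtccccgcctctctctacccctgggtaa
Mmp13 held 1 TGANTCA match, which begins 35 bases before the start, and TATAAA begins 16 bases before it. Spp1 and Col10a1 held TATAAA, 211 and 32 bases before the start, and no TGANTCA. The Edn3 window held neither. The table holds another start of Spp1, and its window (chr5:104435942-104436191) held neither as well; the one shown lies at the start of the annotated gene. Of 32851 promoter windows of this length, 6.75% held TGANTCA and 12.4% held TATAAA, and a match of letters is a description of the window.

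Of 34 listed matrix proteases and inhibitors, 32 were members, 11 rose, 1 fell and 20 did not pass. Over all members, 2.43% rose and 1.45% fell by the same test. The risers include Mmp9, Mmp13 and Mmp10, members only through mutant P56, whose calls the filter made likely. The median log2 change was 0.46, against -0.12 over all members. The count of risers was 8 to 10 without any 1 of the 4 libraries. Mmp3, stromelysin 1, was at 6.64 and 4.54 FPKM in wild type P30 and at 74.1 and 74.3 FPKM in mutant P56, a 13.3-fold difference of the means (log2 change 3.53 ± 0.24, adjusted p = 8.8e-05). Mmp11, stromelysin 3, rose from 19.2 and 24.1 FPKM to 129 and 101 FPKM (log2 change 2.35 ± 0.24, adjusted p = 0.0011). Mmp10, stromelysin 2, was listed at 0 in both wild type P30 libraries and at 2.85 and 6.76 FPKM in mutant P56. The protease inhibitor Timp1 rose too, from 12.8 and 4.78 FPKM to 178 and 148 FPKM (log2 change 4.19 ± 0.43, adjusted p = 0.0011). Timp4, another inhibitor, was the member that fell, from 6.02 and 6.0 FPKM to 0.66 FPKM in each mutant P56 library. Mmp14, the membrane-bound activator of Mmp2, did not pass and averaged 380 FPKM in wild type P30 and 406 FPKM in mutant P56, and Mmp2 did not pass either, at 197 and 209 FPKM.

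Members that separated mutant P56 from every other papilla group were few. Against wild type P56, 1373 members were called (11.1%), with 650 higher (5.27%) and 723 lower (5.87%), and against mutant P30 679 were called (5.51%), with 524 higher (4.25%) and 155 lower (1.26%). Higher against wild type P30, wild type P56 and mutant P30 alike were 58 members (0.471%), and lower against all 3 were 2 members (0.0162%), Ntn5 and Gm12216, of which neither was called without either wild type P30 or either mutant P30 library. These 3 comparisons share the mutant P56 libraries. The 58 fell to 19 without mutant P30 replicate 1 and to 27 without mutant P30 replicate 2, and lay between 40 and 83 without any other single library. By the smallest of the 3 changes, the leading 5 were Plac8, Inmt, Myl1, C7 and Tnni2. All 5 were members only through mutant P56. The 58 include such members, whose calls against wild type P30 the filter made likely.

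Plac8, a small cysteine-rich protein, was at 18.2 and 26.4 FPKM in mutant P56 and at most 0.71 FPKM in the other 6 papilla libraries. Inmt, a methyltransferase for indole amines, was at 21.0 and 20.4 FPKM in mutant P56 and listed at 0 in both wild type P30 libraries. C7, a component of the complement attack complex, was at 16.9 and 9.89 FPKM in mutant P56 against 0.17 and 0 FPKM. Myl1 and Tnni2 encode contractile proteins of skeletal muscle and are taken up with the markers of that tissue. More abundant members of the 58, singled out after their values were seen, were Mgp, Ctsk and Anxa8. Mgp, an inhibitor of matrix calcification, was at 190 and 207 FPKM in wild type P30 and at 1303 and 916 FPKM in mutant P56, while the mutant P30 libraries held 83.7 and 84.0 FPKM and the wild type P56 libraries 99.4 and 99.3 FPKM. Ctsk, the collagen-degrading protease cathepsin K, lay between 143 and 180 FPKM in all 6 libraries of the other groups and at 584 and 472 FPKM in mutant P56 (log2 change from wild type P30 1.68 ± 0.20, adjusted p = 0.0027). Anxa8 lay between 14.4 and 29.2 FPKM in those 6 libraries and at 107 and 177 FPKM in mutant P56.

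**Figure D2:**
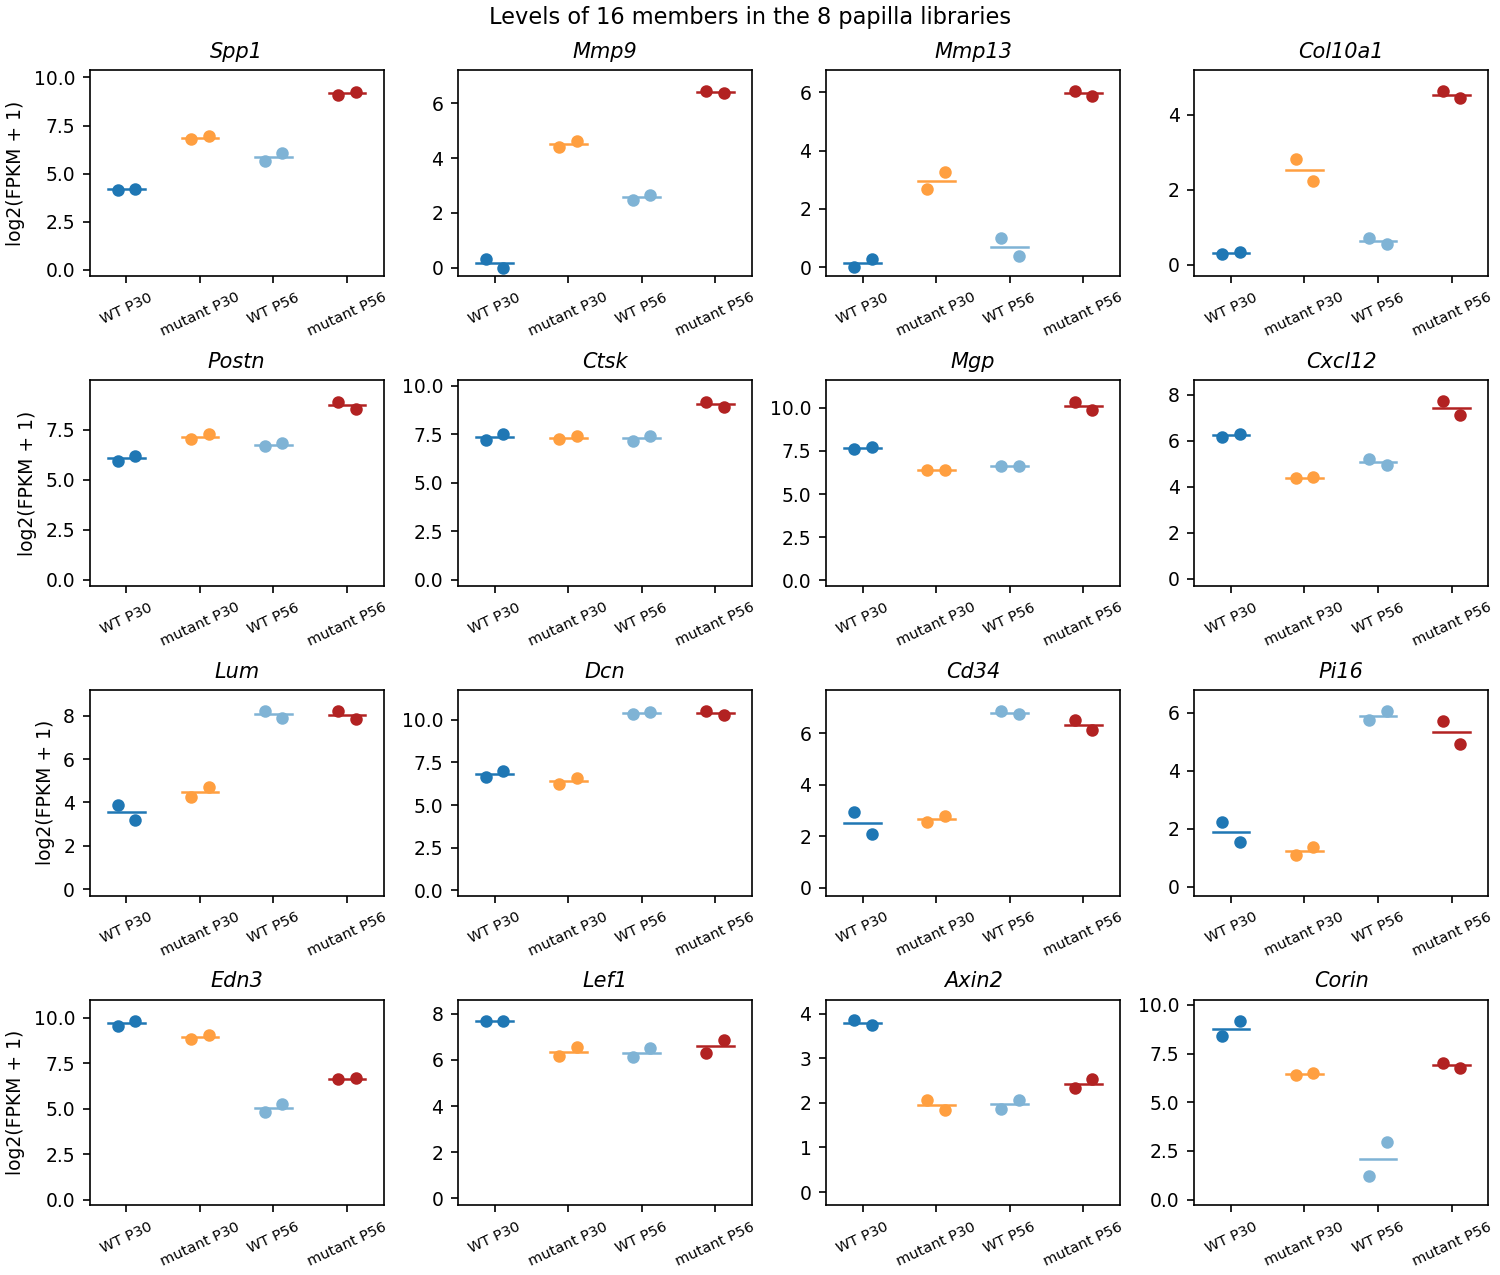
Levels of 16 members in the 8 papilla libraries, as log2(FPKM + 1); each point is 1 library and each line the mean of the 2 libraries of a group, in the order wild type P30, mutant P30, wild type P56 and mutant P56. Spp1, Mmp9, Mmp13, Col10a1, Postn, Ctsk, Mgp and Cxcl12 are highest in mutant P56; Lum, Dcn, Cd34 and Pi16 are high in both P56 groups; Edn3, Lef1, Axin2 and Corin are highest in wild type P30.

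Markers of dermal fibroblasts had the largest share of risers of all lists with at least 7 members, where 2.43% of all members rose. Of 24 listed, 23 were members, 14 rose and none fell, with a median log2 change of 1.90 (-0.12 over all members), and the count was 10 to 14 without any 1 of the 4 libraries. Dcn, the collagen-binding proteoglycan decorin, was at 99.0 and 128 FPKM in wild type P30 and at 1437 and 1262 FPKM in mutant P56 (11.9-fold between the means, log2 change 3.57 ± 0.21, adjusted p = 5.5e-05). Lum, the related proteoglycan lumican, went from 13.8 and 8.17 FPKM to 295 and 231 FPKM (log2 change 4.49 ± 0.28, adjusted p = 6e-05). Cd34, a sialomucin of fibroblast progenitors and vessels, went from 6.73 and 3.25 FPKM to 91.2 and 68.0 FPKM, and Dpt, dermatopontin, from 8.80 and 7.5 FPKM to 173 and 107 FPKM. Pi16, a marker of adventitial fibroblasts, averaged 2.80 FPKM in wild type P30 and 40.7 FPKM in mutant P56. For each of these 5 genes the lower mutant P56 library was above the higher wild type P30 library by a wide margin.

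The wild type papilla at the same age held high levels of some of these genes. Dcn was at 1322 and 1415 FPKM and Lum at 295 and 242 FPKM in wild type P56, and the log2 difference of mutant P56 from wild type P56 was -0.02 for Dcn (adjusted p = 0.95) and -0.03 for Lum (adjusted p = 0.95). Against wild type P56, 6 of the 23 fibroblast markers were called higher (5.27% of all members) and 17 did not pass, with a median log2 change of 0.62. Against mutant P30, 13 were higher (4.25% of all members). C3, the central complement component, was a marker with an excess over both: 0.21 and 0.19 FPKM in wild type P30, 8.66 and 9.06 FPKM in wild type P56 and 27.8 and 20.4 FPKM in mutant P56. Among markers that did not pass was Pdgfra, the receptor for PDGF, at a mean of 103 FPKM in wild type P30 and 64.3 FPKM in mutant P56. Whether the fibroblast transcripts came from papilla cells or from other fibroblasts in the sort was not tested. In bulk libraries more cells of a type and more RNA per cell cannot be told apart.

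Of 40 members among 43 listed proteoglycans and glycoproteins, 13 rose, none fell and 27 did not pass (median log2 change 0.65). Over all members, 2.43% rose and 1.45% fell. Against wild type P56 6 were higher and 9 lower (5.27% and 5.87% of all members). Without wild type P30 replicate 2 the count was 8. Postn, periostin, which binds collagen and integrins, was at 60.7 and 71.8 FPKM in wild type P30 and at 478 and 365 FPKM in mutant P56 (6.37-fold between the means, log2 change 2.64 ± 0.21, adjusted p = 0.00024), and it was also above wild type P56 (101 and 112 FPKM) and mutant P30 (128 and 155 FPKM). Fn1, fibronectin, rose from 12 and 4.30 FPKM to 68.9 and 38.6 FPKM, and Efemp1, a fibulin of elastic fibres, from 8.23 and 4.89 FPKM to 60.1 and 46.2 FPKM. Has1, a hyaluronan synthase, rose from 6.27 and 4.57 FPKM to 108 and 39.6 FPKM and stayed below wild type P56 (333 and 243 FPKM). Of 23 collagen members, Col1a1 and Col6a2 rose, Col15a1 fell and 20 did not pass, with a median of -0.15. All 3 calls held in at most 2 of the 4 fits that left out 1 library. Col1a1, the main chain of type I collagen, was at 713 and 377 FPKM in wild type P30 and at 2740 and 1369 FPKM in mutant P56, and the mutant P30 libraries already held 2498 and 1700 FPKM.

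Chemokine and complement genes rose in a large share of their list, where 2.43% of all members were called higher and 1.45% lower. All 30 listed were members, 14 rose, 2 fell and 14 did not pass, with a median log2 change of 1.44, and 10 to 14 rose without any 1 of the 4 libraries. Ccl11, the eosinophil attractant eotaxin, was at 0.38 and 0.66 FPKM in wild type P30 and at 19.4 and 18.3 FPKM in mutant P56. Ccl7 rose from 14.9 and 16 FPKM to 376 and 121 FPKM (log2 change 3.71 ± 0.45, adjusted p = 0.0027), and C4b, a component of the classical pathway, from 2.20 and 0.02 FPKM to 24.8 and 18.3 FPKM. Cxcl9 was listed at 0 in both wild type P30 libraries and at 11.6 and 7.22 FPKM in mutant P56. C3, Ccl11 and Cxcl9 count among the 14 risers and were members only through mutant P56. Wild type P56 had 13 of the 30 called above wild type P30 and 5 below. Over all 12327 members, 1075 were called above and 1400 below in that comparison. Against wild type P56, 9 were higher and 2 lower in mutant P56 (5.27% and 5.87% of all members), with a median log2 change of 0.50. For Ccl11 and Ccl7 the difference from wild type P56 did not pass (adjusted p = 0.76 and 0.42), and wild type P56 was higher than mutant P56 for C4b, at 208 and 70.1 FPKM. The 2 that fell were Cxcl14 and Il34. Cxcl14, a chemokine abundant in the anagen papilla, fell from 692 and 1102 FPKM to 308 and 440 FPKM (log2 change -1.24 ± 0.26, adjusted p = 0.032), and was called in 2 of the 4 fits that left out 1 library, Il34 in 1 of them. Il34, a ligand of the macrophage receptor Csf1r, went from 33.4 and 31.4 FPKM to 11.7 and 13.8 FPKM.

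Of 19 members among genes that interferon induces, 7 rose and none fell, with a median log2 change of 1.2 and all 19 above 0. Over all members, 2.43% rose and the median was -0.12. Against wild type P56, 1 was higher and 3 were lower in mutant P56, with a median of -0.47. Wild type P56 itself had 14 of the 19 called above wild type P30, where 1075 of all 12327 members were. Leaving out wild type P30 replicate 2 left 2 calls, and leaving out either mutant P56 library left 3. Cxcl10 rose most, from 5.37 and 3.96 FPKM to 91.8 and 50.5 FPKM (log2 change 3.62 ± 0.47, adjusted p = 0.004), and Ifi27l2a went from 11.8 and 3.29 FPKM to 82.8 and 41.4 FPKM. Antigen presentation genes, which interferon also induces, gave no call among 18 members, near the 3.88% called over all members. B2m, the light chain of class I molecules, averaged 1927 FPKM in wild type P30 and 3388 FPKM in mutant P56 (adjusted p = 0.069).

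The list of secreted factors linked to senescence overlaps the matrix and chemokine lists. It had 44 members of 50 listed. Of these, 17 rose and none fell (2.43% and 1.45% of all members), and the median log2 change was 0.96. Without wild type P30 replicate 2, 11 rose. Beside Mmp9, Mmp13, Spp1, Timp1, Ccl7 and Cxcl10, which rose most, it held Il6, at 5.77 and 7.44 FPKM in wild type P30 and at 66.7 and 43.9 FPKM in mutant P56. Il6 was at 67.6 and 45.6 FPKM in wild type P56, a log2 difference of -0.04 from mutant P56 (adjusted p = 0.94). Of the 44 members of this list, wild type P56 had 18 called above wild type P30 and 6 below. Over all 12327 members, those counts were 1075 and 1400. Against wild type P56, 13 were higher and 2 lower in mutant P56 (5.27% and 5.87% of all members), with a median log2 change of 0.61. Mmp9 and Mmp13 count among the 17 risers and were members only through mutant P56. Regulators of the senescent cell cycle arrest were not called, with none of 13 members past the threshold. For a list of this size, that is near the 3.88% called over all members. Cdkn1a, the inhibitor p21, was at 155 and 122 FPKM in wild type P30 and at 276 and 179 FPKM in mutant P56 (adjusted p = 0.22). Cdkn2b, the inhibitor p15, was at 16.7 and 19.3 FPKM against 22.9 and 11 FPKM (adjusted p = 0.84). Cdkn2a was no member, with at most 0.28 FPKM in any of the 4 libraries.

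**Figure D3:**
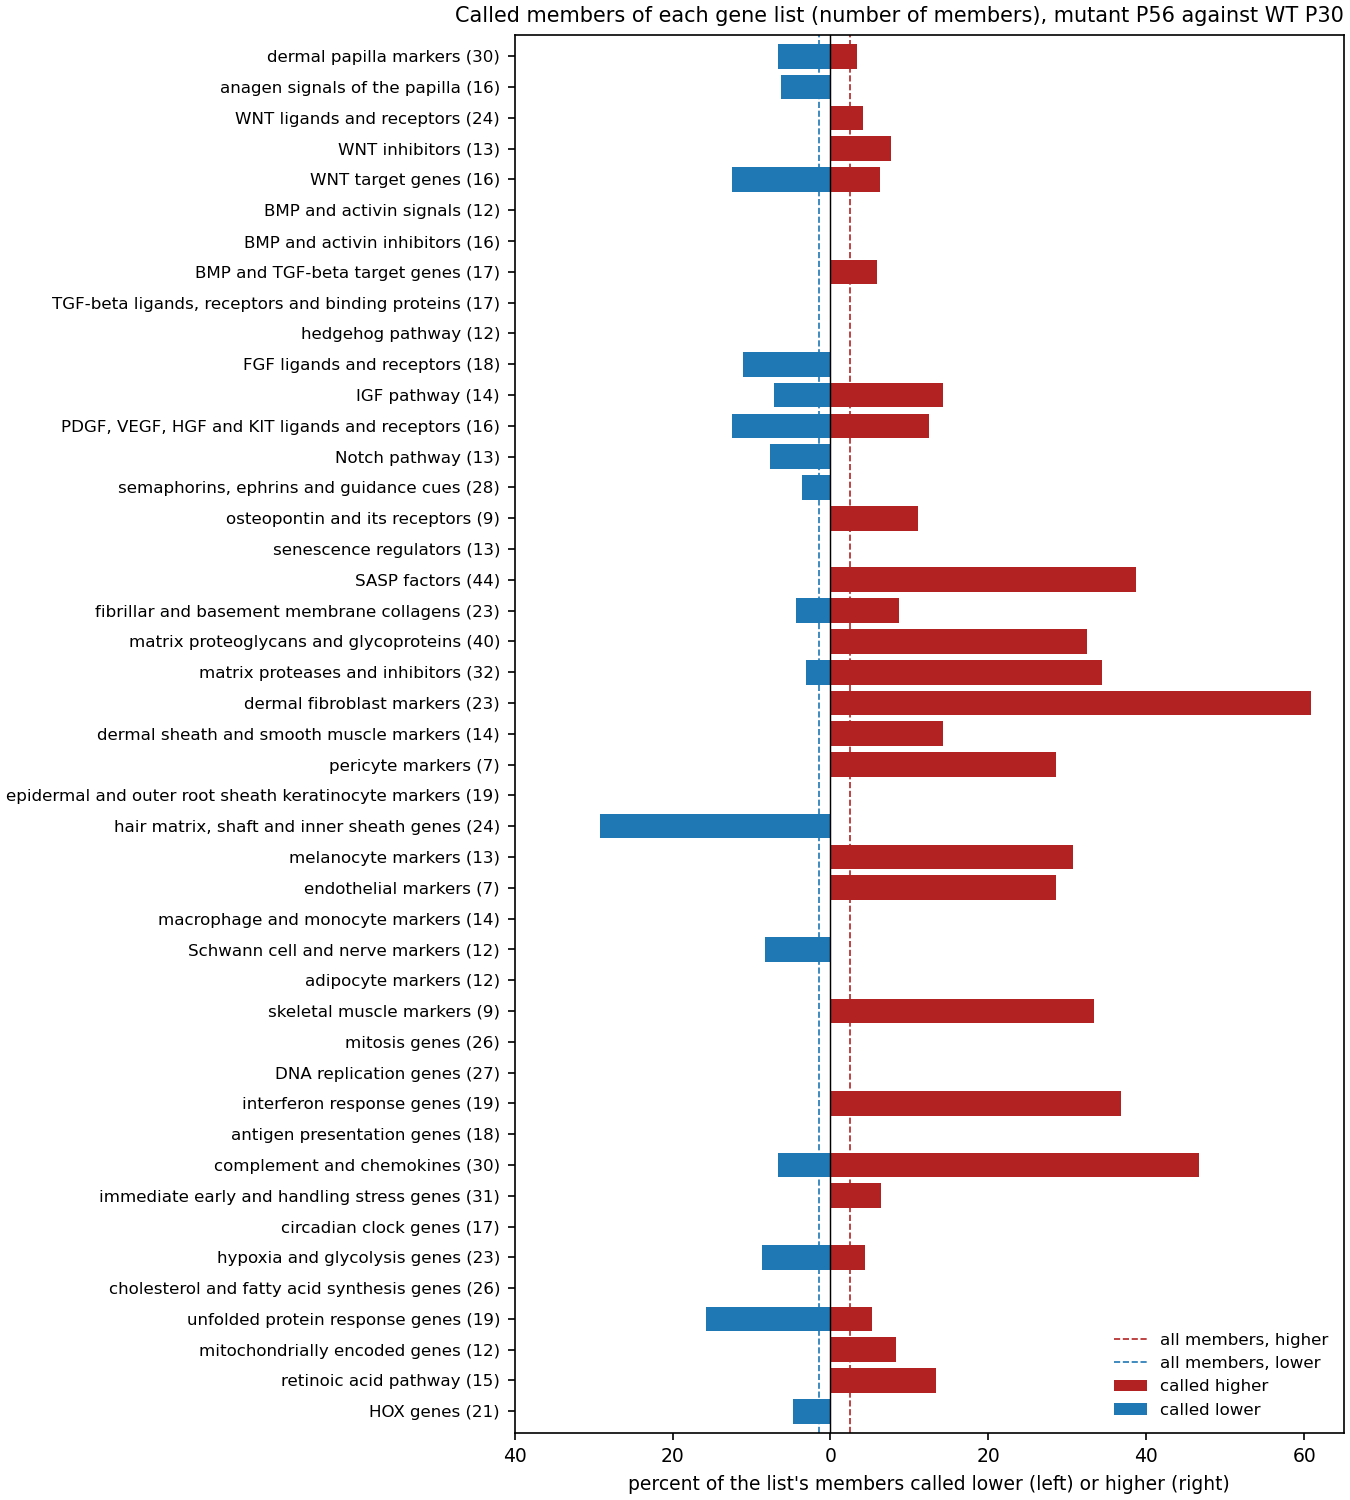
Percent of each list's members called lower (bars to the left) or higher (bars to the right) in mutant P56 against wild type P30, for lists with at least 7 members (the number in parentheses); dashed lines mark the 2.43% of all members called higher and the 1.45% called lower. Fibroblast markers (14 of 23), chemokines and complement (14 of 30) and secreted factors linked to senescence (17 of 44) reach furthest to the right, and hair matrix and shaft genes (7 of 24 lower) furthest to the left. The counts include members that passed the abundance filter only through the group where they are high.

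Most genes that mark the papilla did not pass, as held for 11849 of all 12327 members. All 30 listed papilla markers were members; 1 rose (Thbs2, a matricellular protein), 2 fell (Lef1 and Ncam1) and 27 did not pass, and none of the 3 calls held without either wild type P30 library or mutant P56 replicate 1. Their median log2 change was -0.59 (-0.12 over all members), with 24 of 30 at or below 0. The list summed to 12962 and 14256 FPKM in wild type P30 and to 9100 and 10792 FPKM in mutant P56. Wif1, a secreted WNT inhibitor and among the most abundant of them, was at 3014 and 3870 FPKM in wild type P30 and at 3270 and 3481 FPKM in mutant P56 (adjusted p = 1). Bmp4, a BMP ligand of the papilla that was counted with the BMP signals, was at 234 and 230 FPKM against 216 and 204 FPKM (adjusted p = 0.85). Alpl, alkaline phosphatase, was at 401 and 279 FPKM against 243 and 228 FPKM (adjusted p = 0.76). Corin, a protease used to trace the papilla, had lower values in the nevus, 332 and 570 FPKM against 129 and 108 FPKM, but did not pass (log2 change -1.87 ± 0.48, adjusted p = 0.063). Vcan, the proteoglycan versican, averaged 308 and 191 FPKM (adjusted p = 0.57), and Sox2, a factor of a subset of papillae, stayed under 4 FPKM in all 4 libraries.

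Against the telogen papilla of wild type P56, 10 of the 30 were called higher in mutant P56 and 1 lower (5.27% and 5.87% of all members). The median log2 change was 1.14. Corin was at 1.30 and 6.86 FPKM in wild type P56, 4.81 below mutant P56 on the log2 scale (adjusted p = 0.00036). The wild type P56 libraries differed widely between themselves, with Wif1 at 51.6 and 1598 FPKM, and they carried the smooth muscle signal described at the outset (Des at 639 and 542 FPKM, against 11.2 and 15.3 FPKM in mutant P56). The part of those other cells in the difference was not tested.

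Signals that the papilla sends in anagen gave 1 call in 16 members, Edn3, which fell. For a list of this size, that is near the 3.88% called over all members. The median log2 change was -0.60 (-0.12 over all members), with 3 of 16 above 0. Rspo3, a R-spondin that amplifies WNT signalling, was at 515 and 719 FPKM in wild type P30 and at 227 and 290 FPKM in mutant P56 (adjusted p = 0.16). Fgf10 was at 274 and 196 FPKM against 77 and 96.0 FPKM (adjusted p = 0.16), and Fgf7, which like Fgf10 acts on follicle epithelium, at 711 and 623 FPKM against 351 and 504 FPKM (adjusted p = 0.34). Against wild type P56, 8 of the 16 were called higher and 2 lower (median log2 change 1.56), where 5.27% and 5.87% of all members were. Rspo3 was at 28.4 and 101 FPKM there (adjusted p = 0.013), Fgf7 at 78.5 and 198 FPKM (adjusted p = 0.014) and Fgf10 at 7.43 and 34.7 FPKM (adjusted p = 0.018). The mutant P56 levels of these 3 ligands thus lay between those of the 2 wild type groups, and only the difference from wild type P56 passed. Papilla markers summed to only 2249 and 6782 FPKM in wild type P56, which also carried the smooth muscle signal. The part of those other cells in the ligand differences was not tested.

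**Figure D4:**
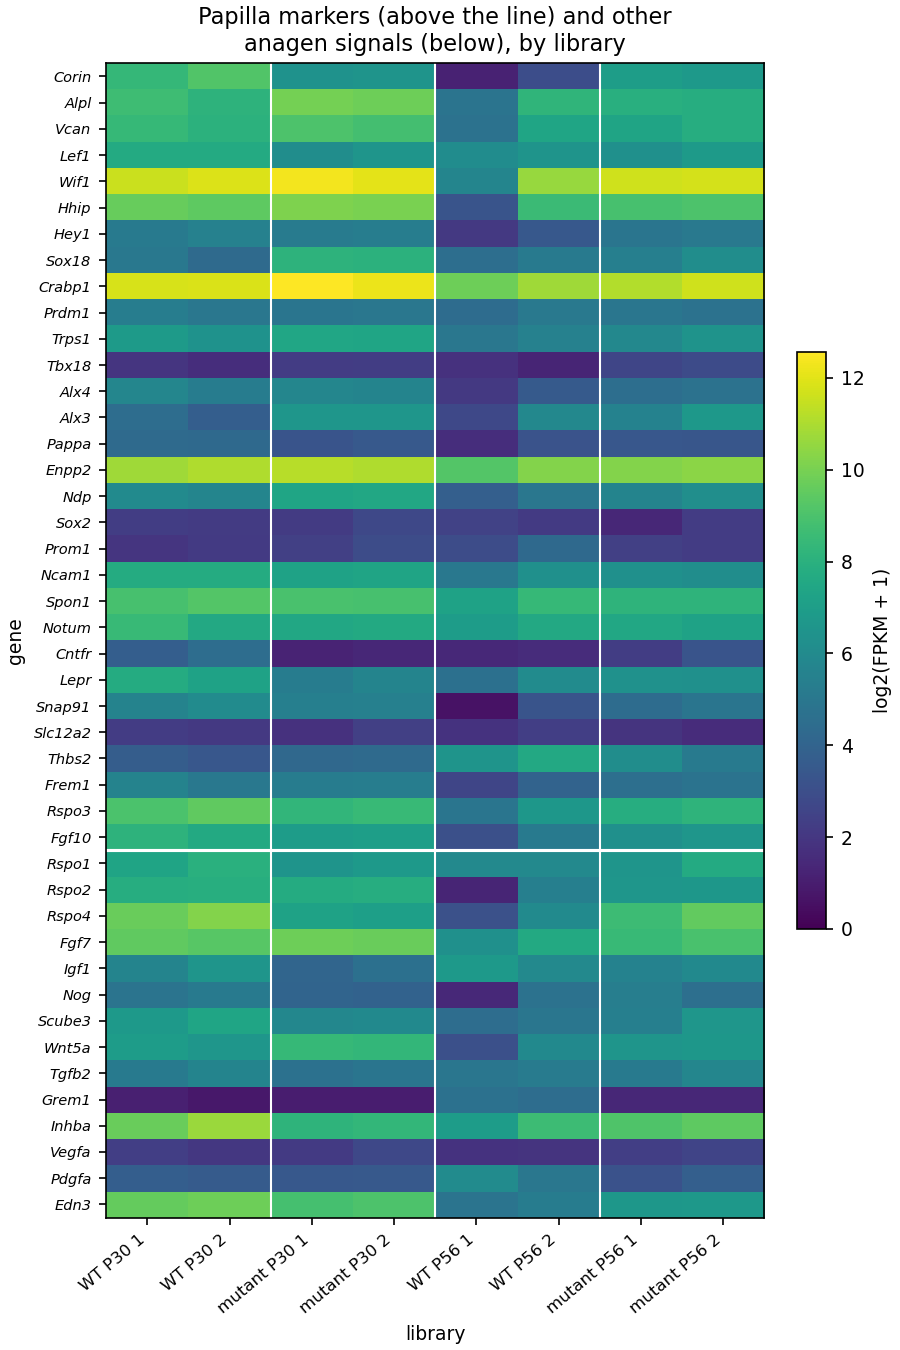
Heat map of papilla markers (above the white line) and other anagen signals (below it) in the 8 papilla libraries, coloured by log2(FPKM + 1) from 0 (dark) upward. Wif1, Crabp1 and Enpp2 are bright in the wild type P30 and mutant P56 columns alike, Edn3 is darker in mutant P56, and wild type P56 replicate 1 is darker than the other columns for Wif1, Hhip and Rspo2.

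Edn3 (chr2:174760619-174784042, plus strand, GRCm38) encodes endothelin 3, a ligand that melanocytes and their progenitors receive through Ednrb. It was at 762 and 898 FPKM in wild type P30 and at 99.1 and 102 FPKM in mutant P56, 8.24-fold lower in the means (log2 change -3.03 ± 0.20, adjusted p = 8.8e-05). The libraries of the 2 groups did not overlap and the call held without any 1 of them. Mutant P30 was at 464 and 538 FPKM, and wild type P56 was lower still, at 27.9 and 37.4 FPKM, so mutant P56 differed from each (log2 differences of -2.30, adjusted p = 0.0003, and 1.61, adjusted p = 0.0012). The receptor Ednrb was at 91.6 and 234 FPKM in wild type P30 and at 319 and 140 FPKM in mutant P56 (adjusted p = 0.56). Edn1, another endothelin, rose from 0.20 and 0.21 FPKM to 2.45 and 2.73 FPKM.

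Of 16 members among WNT target genes, Axin2 and Lef1 fell, Wisp2 rose and 13 did not pass. Their median log2 change was 0.05, with 8 of 16 above 0. Over all members, 3.88% were called. Axin2, a feedback inhibitor of the pathway, was at 13.4 and 12.5 FPKM in wild type P30 and at 4.01 and 4.77 FPKM in mutant P56 (2.95-fold lower in the means, log2 change -1.37 ± 0.25, adjusted p = 0.02). Lef1, the nuclear partner of beta-catenin, was at 203 FPKM in each wild type P30 library and at 78.7 and 115 FPKM in mutant P56 (log2 change -1.09 ± 0.24, adjusted p = 0.042), and after rescaling its change was -0.96 and no longer a call. Both were called in only 1 of the 4 fits that left out 1 library. Mutant P30 and wild type P56 held like levels, with means of 2.90 and 2.92 FPKM for Axin2 and 81.3 and 79.5 FPKM for Lef1. Wisp2, a secreted CCN protein of fibroblasts, went the other way, from 2.70 and 0.52 FPKM to 12.9 and 11.6 FPKM. Among 24 WNT ligands and receptors only Lgr6 was called (from 1.39 and 0.63 FPKM to 5.10 and 6.47 FPKM), and among 13 inhibitors only Sfrp4, a secreted frizzled-related protein, which rose from 1.59 and 0.17 FPKM to 9.80 and 9.39 FPKM and was above all 3 other groups.

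In other growth factor pathways, calls are given by list, where 3.88% of all members were called. For lists of 12 to 17 members, no call is near that share. In the FGF list 2 of 18 members fell, the feedback inhibitor Spry4 (from 32.6 and 28.0 FPKM to 13.7 and 7.0 FPKM) and the decoy receptor Fgfrl1, and neither was called after rescaling. In the IGF list the binding proteins Igfbp6 and Igfbp2 rose and the protease Pappa2 fell among 14 members. Igfbp6 went from 18.3 and 10.8 FPKM to 149 and 112 FPKM, near wild type P56 (127 and 159 FPKM), whereas Igfbp2 went from 55.6 and 56.4 FPKM to 385 and 199 FPKM, above wild type P56 (42.1 and 71.7 FPKM). None of 12 BMP and activin ligands, 16 of their inhibitors, 17 TGF-beta components or 12 hedgehog components was called. Inhba, a subunit of activin, was at 815 and 1648 FPKM against 554 and 692 FPKM (adjusted p = 0.32), and Sostdc1, a secreted inhibitor of BMP and WNT, at 2985 and 3939 FPKM against 878 and 1382 FPKM (adjusted p = 0.12). Tgfbi, which TGF-beta induces, was the 1 called of 17 target genes of BMP and TGF-beta and rose from 11.8 and 10.5 FPKM to 57.0 and 55.2 FPKM. Efna5 in the guidance cues, Notch4 in the Notch pathway and Hoxd3 among 21 HOX genes were the lone calls of their lists, all lower. Of the calls in these lists, Igfbp6 and Tgfbi were called whichever of the 4 libraries was left out, Igfbp2 in 3 of the 4 fits, and the others in at most 2.

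No receptor of osteopontin was called. Among 9 members of that list Spp1 was the only call, where 3.88% of all members were called. Cd44 was at 78.6 and 67.1 FPKM in wild type P30 and at 75.1 and 68.0 FPKM in mutant P56 (log2 change -0.02 ± 0.18, adjusted p = 0.96), and the integrin subunit Itgav was at 37.1 and 24.7 FPKM against 48.8 and 26.0 FPKM (adjusted p = 0.71). Nras was at 30.6 and 28.3 FPKM against 25.2 and 23.6 FPKM (adjusted p = 0.49); whether reads of the transgene add to it was not tested.

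Of the 10 largest falls, 6 carried symbols of hair keratins or keratin-associated proteins. Of 36 listed genes of the hair matrix, shaft and inner sheath, 24 were members, 7 fell and none rose, with a median log2 change of -1.42. Over all members, 1.45% fell and the median was -0.12. Leaving out wild type P30 replicate 1 left 2 calls, mutant P56 replicate 1 left 3, and mutant P56 replicate 2 gave 14. Krt81, a hair cortex keratin, was at 12.8 and 4.74 FPKM in wild type P30 and at 0.12 and 0.70 FPKM in mutant P56 (log2 change -2.69 ± 0.41, adjusted p = 0.0089). Krt33a was at 19.6 and 5.90 FPKM against 0.06 and 2.11 FPKM, and Krtap11-1, a keratin-associated protein, at 20.3 and 14.6 FPKM against 1.02 and 4.37 FPKM. The whole list, Lef1 included, summed to 665 and 464 FPKM in wild type P30 and to 147 and 332 FPKM in mutant P56. In mutant P30, at the same age as the anagen wild type, it summed to 197 and 244 FPKM, and no member differed there from mutant P56 by the test. Hair shaft keratins are products of epithelial cells that enclose the papilla, and the part of such cells in the fall was not tested. The largest of these falls was in 5430421N21Rik (log2 change -3.25), and the others of the 10 were Edn3, Gm9008 and Ntn5. Ntn5, a netrin, was at 7.17 and 6.54 FPKM in wild type P30 and at 0.68 and 0 FPKM in mutant P56. The products of 5430421N21Rik and Gm9008 were not looked up here.

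Some markers of further cell types were higher in mutant P56 than in wild type P30, where 2.43% of all members were called higher. Of 16 melanocyte markers 13 were members and 4 rose: Dct, Mlana, Tyr and Gpnmb, the last also a gene of macrophages. Dct, an enzyme of melanin synthesis, was at 3.13 and 0.89 FPKM in wild type P30 and at 32.6 and 53.1 FPKM in mutant P56 (log2 change 3.93 ± 0.56, adjusted p = 0.0063), and Mlana went from 1.34 and 3.30 FPKM to 19.7 and 32.4 FPKM. Tyr was at 0.03 and 0 FPKM against 3.20 and 7.11 FPKM. The list summed to 112 and 250 FPKM in wild type P30 and to 417 and 308 FPKM in mutant P56. Ednrb made up most of the sums in wild type P30, and 319 and 140 FPKM in mutant P56. The rest of the list summed higher in both mutant P56 libraries. Of 16 skeletal muscle markers 9 were members and Tnni2, Acta1 and Pvalb rose, with 1 riser left without wild type P30 replicate 2 and 6 without mutant P56 replicate 2. Mutant P56 replicate 1 held 167 FPKM in sum and replicate 2 held 41.5 FPKM, against 22.5 and 13.5 FPKM in wild type P30. The wild type P56 libraries held 108 and 101 FPKM, so the muscle signal was present in both P56 groups. In mutant P56 Tnni2 was at 20.9 and 5.54 FPKM and Myl1 at 25.6 and 11.4 FPKM. The part of pigment cells and muscle in the other rises was not tested.

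Keratinocyte markers differed between the 2 mutant P56 libraries. The list summed to 290 FPKM in replicate 1 and 1956 FPKM in replicate 2, against 303 and 241 FPKM in wild type P30, and Krt14 was at 65.3 and 599 FPKM. None of 19 members was called, whereas 14 were called higher without mutant P56 replicate 1. Among blood cells the macrophage and monocyte list gave no call in 14 members, near the 3.88% called over all members. It summed to 63.6 and 172 FPKM in mutant P56 and to 102 and 27.3 FPKM in wild type P30. The pan-leukocyte gene Ptprc was at most 0.29 FPKM in any of the 4 libraries. Endothelial markers gave 2 calls in 7 members, Plvap and Erg, of which at most 1 was left without any single library and Erg never. They summed to 31.7 and 26.2 FPKM against 16.6 and 19.3 FPKM. Smooth muscle and sheath markers gave 2 calls in 14, Acta2 and Actg2, and 5 calls without wild type P30 replicate 1, none without replicate 2 of that group, 1 without mutant P56 replicate 1 and 2 without replicate 2. Acta2, smooth muscle actin, rose from 287 and 215 FPKM to 1032 and 583 FPKM and remained below wild type P56 (2977 and 2773 FPKM). Des and Myh11, which mark differentiated smooth muscle, stayed at 3.74 to 15.3 FPKM in mutant P56.

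**Figure D5:**
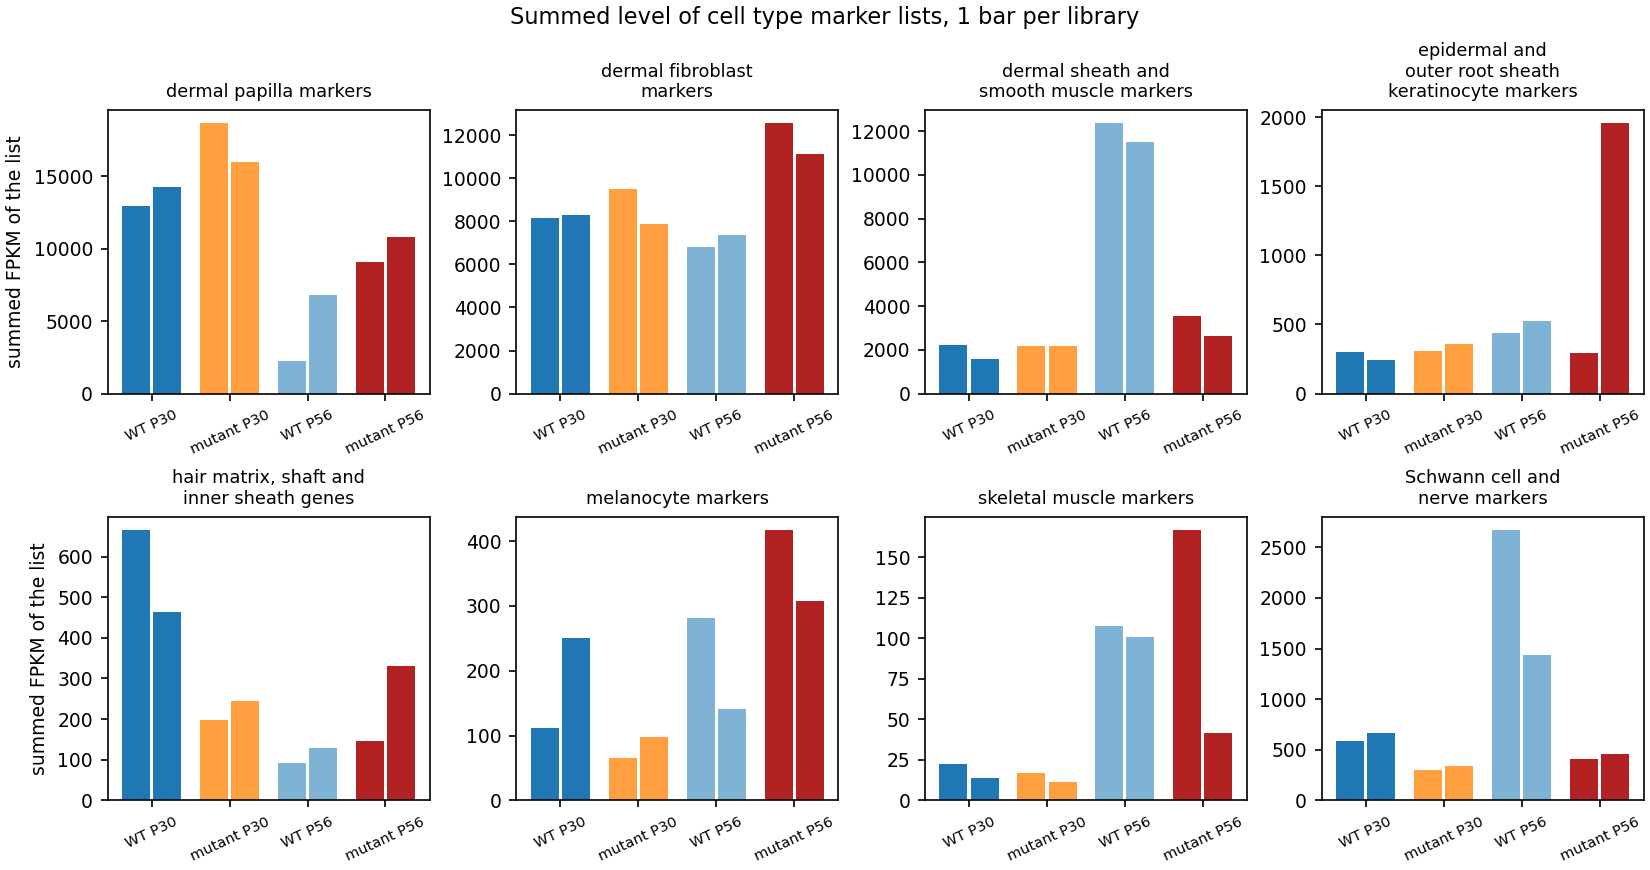
Summed FPKM of 8 cell type marker lists, 1 bar for each library, in the order wild type P30, mutant P30, wild type P56 and mutant P56. Papilla markers are lowest in wild type P56, smooth muscle and nerve markers are highest there, and keratinocyte markers stand out in mutant P56 replicate 2 (1956 FPKM). Skeletal muscle markers are highest in mutant P56 replicate 1 (167 FPKM), with 108 and 101 FPKM in wild type P56.

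No gene of the proliferation lists was called, where 3.88% of all members were. For lists of this size, no call is near that share. None of 26 members among mitosis genes and 27 among DNA replication genes was called; Cdk1 was at 10.6 and 7.24 FPKM in wild type P30 and at 11 and 8.78 FPKM in mutant P56. Against mutant P30, 15 of the mitosis genes were lower in mutant P56 and none higher (1.26% and 4.25% of all members). Mki67 was no member, at 0.27 to 0.47 FPKM. Genes of the circadian clock (17 members) and of cholesterol and fatty acid synthesis (26 members) also gave no call. Of 31 immediate early and handling stress genes, Atf3 rose from 30.8 and 26.0 FPKM to 156 and 130 FPKM and Fosl1 from 6.80 and 4.42 FPKM to 19.3 and 29.7 FPKM, while Fos, Jun and Egr1 did not pass. Of 19 genes of the unfolded protein response, the chaperone cofactors Sdf2l1, Hyou1 and Creld2 fell and the transcription factor Ddit3 rose, and only 1 of the falls was called after rescaling. In the retinoic acid pathway Aldh1a1, which makes retinoic acid, rose from 7.65 and 5.43 FPKM to 30.7 and 46.4 FPKM against 0.18 and 0.19 FPKM in mutant P30, and Rarres2, a chemoattractant that retinoids induce, rose from 29.3 and 53.5 FPKM to 215 and 191 FPKM. Atf3, Fosl1 and Rarres2 had levels in wild type P56 at or above those of mutant P56, and of the calls named here Atf3 and Rarres2 held in all 4 fits that left out 1 library.

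The remaining lists gave the calls below, where 3.88% of all members were called. Among ligands and receptors of the PDGF, VEGF, HGF and KIT families, with the endothelins, 16 were members; Pdgfc rose beside Edn1, and Nrp2, a coreceptor for VEGF and semaphorins, fell beside Edn3. Pdgfc was at 1.81 and 1.60 FPKM in wild type P30 and at 5.55 and 6.21 FPKM in mutant P56. Of 23 hypoxia and glycolysis genes, Adm, the vasodilator adrenomedullin, rose from 9.49 and 12.2 FPKM to 35.1 and 23.3 FPKM, while Ndrg1 and the glycolytic enzyme Pfkl fell. Ndrg1, a stress-induced gene, went from 303 and 445 FPKM to 133 and 127 FPKM (log2 change -1.49, adjusted p = 0.0078), with 43.7 and 48.6 FPKM in mutant P30. Pericyte markers gave 2 risers in 7 members, Ndufa4l2 and Mcam, nerve markers gave Ncam1 as the lone faller in 12, and mitochondrially encoded genes gave mt-Co3 as the lone riser in 12. None of 12 adipocyte markers, 4 erythroid genes or the 1 member among other leukocyte markers was called. Except for Ndrg1, which was called in 3 of the 4 fits that left out 1 library, and Edn3, these calls held in at most 2 of them.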

How the data were processed

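Papilla cells of dorsal skin were sorted by the authors, RNA was converted to full-length cDNA and sequenced, and reads were aligned to GRCm38 with STAR (version 2.4.2 in the submitters' processing notes) and counted with RSEM. The deposited values are FPKM per gene, with no stated scaling between libraries. The table used here has 8 libraries, 2 for each of mutant and wild type at P30 and P56. Depth is unknown, so precision rests on the spread within the pairs of libraries, pooled over the 4 groups.

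Protein-coding genes and lncRNAs with at least 1 FPKM in at least 2 of the 8 libraries (13899 genes) were fitted on log2(FPKM + 1) with limma 3.58.1 in R 4.3.3, with 1 mean per group, a variance trend and no replicate block. P-values are two-sided and adjusted by Benjamini and Hochberg over all genes fitted, and a member was called at an adjusted p under 0.05 and a change of at least 2-fold. Changes on this scale understate ratios of low genes. The study's own test needs read counts, which FPKM do not give. The fit was tested on simulated data. There were 25 symbols turned into dates, which were restored from gene identifiers. Gene positions are from GENCODE M21 on GRCm38.

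The members and the 48 gene lists were chosen with earlier results of these data known. Of 965 listed entries, 23 genes had no row in the table used. Named genes were the 10 largest rises and falls among called members with at least 5 FPKM in the higher group and no overlap, the leading members called against all 3 other groups, up to 6 called members of a list with the largest change (or the 2 most abundant where none was called), and a fixed set of papilla and senescence genes. Other genes named were chosen after their values were seen. Alternatives were another scaling, 2 pseudocounts, 2 filters, a fit on members only, on 4 libraries only, with a replicate block, without the trend or with a robust prior, and leaving out each library; leaving out the libraries of the other 2 groups was added after the data were seen.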

Additional observations from a re-analysis of the deposited data

How the results depend on the processing

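Of 478 called members, 299 higher and 179 lower, the counts were 284, 199 and 85 with no filter on low values, and 122, 98 and 24 with the 4 libraries compared alone, where few degrees of freedom remain. Rescaling by the median ratio gave 119 lower. Without 1 of the 4 libraries the counts ranged from 150 to 392, from 108 to 275 and from 42 to 117. The replicate numbers do not pair the samples by the labels, and same-numbered deviations of wild type P30 and mutant P56 correlated at 0.11; with the replicate block 392 were called. Other pseudocounts, filters and priors kept the count between 393 and 552. Against wild type P56, where 1373 were called, leaving out 1 library gave 713 to 1752, the lowest without wild type P56 replicate 1, and 740 without mutant P56 replicate 2. Against mutant P30, where 679 were called, the range was 98 to 483, with 98 and 138 without mutant P30 replicates 1 and 2 and 442 without mutant P56 replicate 1. Members higher than all 3 groups ranged from 19 to 83, and those lower from 0 to 5. No named member changed sign in a called result. After rescaling 125 of the 136 named members kept their side of the threshold, and without wild type P30 replicate 2, 93 did. With 2 libraries per group and unknown depth, genes at 1 or 2 FPKM are the least certain.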

Other observations

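Some large differences rested on 1 library and did not pass. Cartpt, a neuropeptide gene, was at 8435 and 2.29 FPKM in the 2 wild type P30 libraries, at 3573 and 3463 FPKM in mutant P30, at 0.46 and 2015 FPKM in wild type P56 and at 9.73 and 1.30 FPKM in mutant P56 (log2 change -5.07 ± 3.58, adjusted p = 0.44). The 2 libraries of each wild type group thus lay further apart than the 2 mutant libraries of either age. Serpinb2 was at 5.70 and 115 FPKM and Krtdap, a keratinocyte gene, at 16.4 and 392 FPKM in the mutant P56 libraries, the higher value in the library with more keratinocyte markers in both cases. Gm8730 was at 165 and 9.51 FPKM in mutant P56 and at 153 and 6.98 FPKM in wild type P56. These genes were chosen after their values were seen.

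Outside the protein-coding genes, 823 lncRNAs were fitted, of which 13 were higher and 7 lower in mutant P56 than in wild type P30. Gm14005 was at 7.37 and 10.4 FPKM in wild type P30 and at 75.4 and 48.2 FPKM in mutant P56, and at no more than 12.7 FPKM in the other 4 papilla libraries (log2 change 2.65 ± 0.30, adjusted p = 0.0019). No source used here says whether reads were assigned by strand, so antisense genes such as Gm15867 and Gm28221 cannot be told apart from their overlapping partners.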
